A study of Rattus norvegicus with 11 samples.

Results

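The miR-130 and miR-301 miRNAs were followed in rat pancreatic islets as they mature from suckling to adulthood. The members are all sense-strand mature arms of miR-130a, miR-130b, miR-301a and miR-301b, chosen by name, which gave 8 of the 898 features left after 1 entry was kept per name (950 rows in all). Islets of control Sprague-Dawley rats were sequenced as small RNA libraries at 2 ages, 5 libraries from animals 10 days old (P10) and 6 from males 3 months old (Adult). The labels call the libraries biological replicates but do not say whether one holds the islets of 1 animal or of several, so p-values measure the spread between these libraries. All adults were labelled male and the sex of the pups is not known here, so effects of age and sex cannot be told apart.

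MicroRNAs are short RNAs that guide Argonaute proteins to messenger RNAs, mostly by pairing through the seed near their 5′ end. A hairpin precursor yields a 5p and a 3p arm, of which one usually accumulates. In this family the 3p arms accumulate and share a seed, so they can act on overlapping targets; a known target is PPARG, the regulator of fat cell differentiation. miR-130a is known from vessels, where it represses homeobox genes that restrain endothelial growth, and miR-301a is known as an activator of NF-κB signalling through the repressor NKRF. Islets are clusters of hormone-secreting endocrine cells that also hold vessels and connective tissue cells.

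The sequences of the 3p arms are shown because the printed arms share a seed but had unlike estimated age changes. They come from RefSeq (GRCr8), in which 7 of the 8 members had a mature entry; miR-301a-3p is named only. All are written 5′ to 3′, with the seed (bases 2 to 8) in capitals.
miR-130a-3p: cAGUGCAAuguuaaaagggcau
miR-130b-3p: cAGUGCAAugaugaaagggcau
miR-301b-3p: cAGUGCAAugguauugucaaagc
The 3 printed arms were identical from base 1 to base 10. miR-130a-3p and miR-130b-3p were identical at 20 of 22 positions and differed by U11A and A13G (the base of miR-130a-3p first, positions counted from 1 at the 5′ end). miR-301b-3p matched miR-130a-3p at 13 and miR-130b-3p at 12 of 22 positions without gaps. No other mature miRNA of the RefSeq table (0 besides the members) had these bases 2 to 8. The counting rules for near-identical arms, including any mismatches allowed, are not stated. How longer reads were divided between miR-130a-3p and miR-130b-3p is therefore not known, and a read cut short before base 11 could not be placed. The levels of these arms are uncertain to an unknown extent.

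The 5p arms fall into other seed groups. miR-301a-5p and miR-301b-5p shared bases 2 to 8 with each other, while miR-130b-5p carried a different seed.
miR-301a-5p: gCUCUGACuuuauugcacuac
miR-301b-5p: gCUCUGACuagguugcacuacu
miR-130b-5p: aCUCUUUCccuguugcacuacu

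The 4 precursors lie at 3 places in the genome (Rnor_5.0, per the file headers). The 3p arm of miR-130a is on chromosome 3 (78661709 to 78661730, minus strand) and that of miR-301a on chromosome 10 (75682835 to 75682857, minus strand). miR-301b and miR-130b are neighbours on chromosome 11, plus strand, with 3p arms at 91182017 to 91182039 and 91182370 to 91182391, and 410 bp span both hairpins' arms. In RefSeq (GRCr8, used for names only) the miR-301a gene overlaps Ska2 and Prr11, the miR-130b and miR-301b genes overlap the protein-coding 2610318N02Rikl, and the miR-130a gene overlaps Mir3590, annotated on the other strand. The deposited features carry a strand tag; whether an arm lies in an exon or an intron was not determined.

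Library totals ran from 1432929 to 4483017 counts. The endocrine miRNAs miR-375, miR-7a and miR-7b were all detected and summed to 113604 to 166588 CPM at P10 and 252751 to 326109 CPM in adults (the share of the library's reads times 1000000, with library sizes adjusted by edgeR's TMM method), so the libraries carry the markers of their labelled tissue. These ranges did not overlap, and of the 7 endocrine arms tested 5 rose and 0 fell (median log2 change 1.01), beside the lower family levels described next; the part of this shift in them was not tested. The mesenchymal and smooth muscle list was also present at both ages: 3 of its 5 miRNAs had counts (miR-199a, miR-143 and miR-145), summing to 33256 to 61145 CPM at P10 and 17177 to 58305 CPM in adults, highest in P10 replicate 3 and adult replicate 1. Leukocyte miRNAs (3 of 3 detected) summed to 618 to 1357 CPM at P10 and 212 to 787 CPM in adults, erythroid miRNAs (2 of 3) to 14.5 to 72.3 CPM over all libraries, and acinar miRNAs (3 of 3) summed to 22.2 to 37.7 CPM at P10 and 28.6 to 127 CPM in adults. The endothelial marker miR-126 was not analysed here, so endothelial content was not assessed. Fewer cells of a type and less RNA per cell cannot be told apart in such bulk samples.

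Among the members, 2 were abundant, 2 intermediate and 4 scarce. The 5 members that passed edgeR's abundance filter were the 4 3p arms and miR-130b-5p. In the adult against P10 comparison 3 of these 5 fell (miR-130a-3p, miR-301b-3p and miR-130b-3p) and 0 rose. Over all 457 features tested, 29.5% were called lower and 50.8% were called in either direction, by edgeR's quasi-likelihood test with Benjamini-Hochberg adjusted p under 0.05. The median log2 fold change was -0.38 over the 5 members and -0.11 over all features tested. The CPM ranges of the ages did not overlap for 2 of the 5 members, both higher at P10, against 16.4% of all features tested.

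miR-130a-3p, the vessel-associated member, fell the most in CPM. It was at 736, 1063, 924, 794 and 829.7 CPM in P10 replicates 1, 3, 4, 5 and 6, and in adults its lowest, median and highest values were 339, 397 and 550 CPM. Every P10 library lay above every adult library; P10 replicate 3 and adult replicate 1 were the highest of their ages. The P10 mean was 869 ± 128 CPM (SD, n = 5) and the adult mean 415 ± 80.7 CPM (SD, n = 6), 2.09-fold lower, a log2 change of -1.07 with SE 0.15 (edgeR adjusted p = 5.51e-05). These values rest on 524 to 3991 counts per library.

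miR-301b-3p, the scarcest of the 3p arms, fell by a like amount. It was at 30.7, 57.1, 34.0, 29.4 and 45.3 CPM in P10 replicates 1, 3, 4, 5 and 6, and at 13.1, 17.8 and 23.7 CPM (lowest, median, highest) in adults. The ages again did not overlap. The mean was 39.3 ± 11.8 CPM (SD, n = 5) at P10 and 17.9 ± 3.44 CPM (SD, n = 6) in adults, 2.18-fold lower, a log2 change of -1.12 with SE 0.22 (edgeR adjusted p = 0.000681). Its counts were low, 85 to 218 at P10 and 19 to 50 in adults; in adult replicate 4 the 19 counts have an exact 95% Poisson interval of 11.4 to 29.7, which covers counting error only. In adults counting alone gives a coefficient of variation of 18%, and the observed one was 19.2%.

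miR-130b-3p, the cluster neighbour of miR-301b, fell less. It was at 78.0, 92.1, 95.5, 108 and 119.7 CPM in P10 replicates 1, 3, 4, 5 and 6, against a lowest, median and highest of 67.4, 77.7 and 82.2 CPM in adults. The ages overlapped because P10 replicate 1 lay within the adult range. The P10 mean was 98.7 ± 16.0 CPM (SD, n = 5) and the adult mean 75.9 ± 6.02 CPM (SD, n = 6), 1.30-fold lower, a log2 change of -0.38 with SE 0.14 (edgeR adjusted p = 0.0319). This call ended under several other settings, among them edgeR with DESeq2's size factors (-0.29, adjusted p = 0.0890), edgeR with upper-quartile scaling (-0.22, adjusted p = 0.252), and edgeR without P10 replicate 5 (-0.32, adjusted p = 0.102) or P10 replicate 6 (-0.31, adjusted p = 0.0953). With the replicate number as a block it was -0.35 (edgeR adjusted p = 0.120), and without adult replicate 2, 3, 5 or 6 in turn the edgeR adjusted p was 0.0627, 0.0728, 0.0573 and 0.0612.

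miR-301a-3p was the most abundant member and did not pass the test. It was at 806, 1283, 1529, 1058 and 1629 CPM in P10 replicates 1, 3, 4, 5 and 6, and at 806.0, 983 and 1225 CPM (lowest, median, highest) in adults. The ages overlapped widely: P10 replicates 4 and 6 and, by less, 3 lay above all adults. P10 replicate 1 was level with the lowest adult library (805.7 and 806.0 CPM). The mean was 1261 ± 338 CPM (SD, n = 5) at P10 and 1002 ± 137 CPM (SD, n = 6) in adults, a log2 change of -0.33 with SE 0.17 (edgeR adjusted p = 0.118). At 952 to 7837 counts per library, counting alone gives a coefficient of variation of 1.68% at P10, where the observed one was 26.8%, so depth did not limit this comparison. Without P10 replicate 1 the change was -0.46 (edgeR adjusted p = 0.0176), and with library totals in place of TMM it was -0.58 (edgeR adjusted p = 0.0105).

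**Figure D1:**
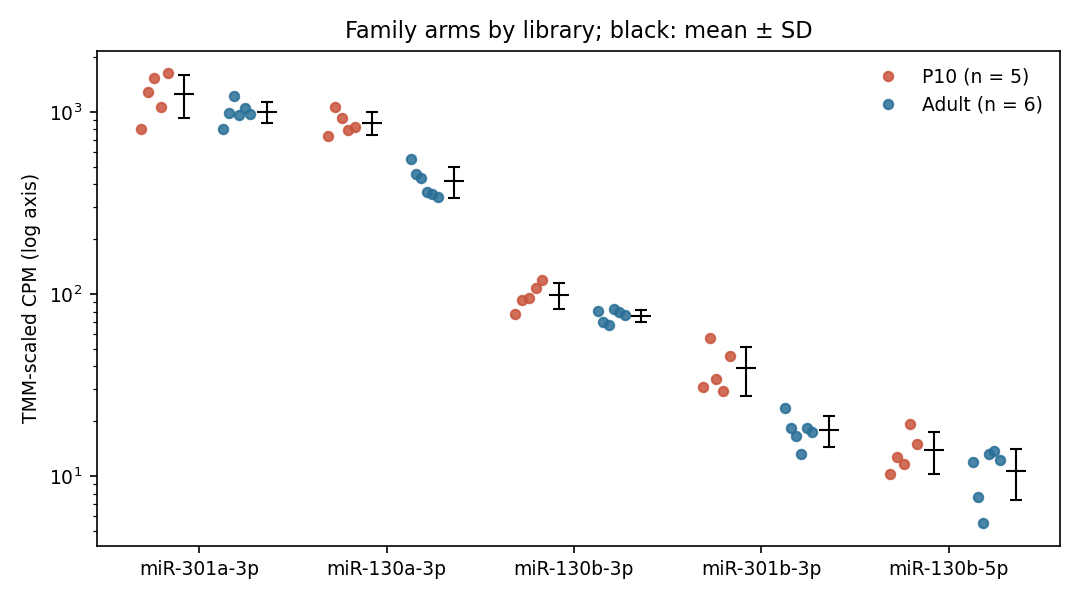
TMM-scaled CPM (log axis) of the 5 tested arms in each P10 library (red, n = 5) and adult library (blue, n = 6), with mean ± SD in black. The ages separate for miR-130a-3p and miR-301b-3p, and overlap for miR-301a-3p, miR-130b-3p and miR-130b-5p.

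The order of the 3p arms by level was the same at both ages by their means: miR-301a-3p, miR-130a-3p, miR-130b-3p and miR-301b-3p. At P10 the ranges of the first 2 overlapped (806 to 1629 and 736 to 1063 CPM), while in adults miR-301a-3p (806.0 to 1225 CPM) lay wholly above miR-130a-3p (339 to 550 CPM). The other neighbours in this order did not overlap at either age. Mature arms are of nearly equal length, 22 to 23 bases for the 3 printed 3p arms, but ligation and PCR favour some sequences, so levels of different arms are less comparable than 1 arm between libraries. By mean level over the libraries, miR-301a-3p ranked 59, miR-130a-3p 81, miR-130b-3p 186 and miR-301b-3p 287 of the 457 features tested.

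Whether the members differed in their age response was tested on the log2 ratio of each pair of 3p arms within a library, in which the scaling of a library cancels apart from the small prior count. Ratios are geometric means over libraries. All 6 pairs were compared by a two-sided exact permutation test of the age labels of the 11 libraries, in which the smallest possible p is 0.00216, with Benjamini-Hochberg adjustment over the 6. By size of estimated change the arms lay in pairs that did not follow the genome, with the chromosome 11 neighbours apart. The calls behind this ended when P10 replicate 3 alone was left out, as given below.

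Relative to miR-301a-3p, miR-130a-3p was lower in adults. There were 0.706 miR-130a-3p reads per miR-301a-3p read at P10 and 0.412 in adults, a difference of -0.78 ± 0.22 log2 units (SE; exact permutation p = 0.0130, adjusted p = 0.0260). In adult replicate 1 the log2 ratio was -0.55, within the P10 range of -0.97 to -0.13, whereas the other adult libraries were all below that range. Relative to miR-130b-3p, its closest relative in sequence, miR-130a-3p went from 8.76 to 5.36 reads per read, a difference of -0.71 ± 0.19 (SE; exact permutation p = 0.00433, adjusted p = 0.0195). The log2 ratios ran from 2.78 to 3.52 at P10 and from 2.13 to 2.76 in adults, so the ages did not overlap for this pair.

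Within the chromosome 11 cluster, there were 2.54 miR-130b-3p reads per miR-301b-3p read at P10 and 4.15 in adults. The difference was 0.71 ± 0.22 log2 units (SE; exact permutation p = 0.00649, adjusted p = 0.0195). P10 replicate 3 had the lowest log2 ratio (0.68), P10 replicate 5 overlapped the adults at 1.86, and adult replicate 4, with the fewest miR-301b-3p counts, was the highest at 2.58. Against miR-301a-3p, miR-301b-3p went from 31.5 to 54.0 miR-301a-3p reads per read, a difference of 0.78 ± 0.24 (SE; exact permutation p = 0.0173, adjusted p = 0.0260). All 4 of these calls ended when P10 replicate 3 alone was left out, with an adjusted exact permutation p of 0.05 in each. The differences were then 0.54 within the cluster and 0.65 for miR-301a-3p against miR-301b-3p. For miR-130a-3p they were -0.61 against miR-130b-3p and -0.72 against miR-301a-3p. Without P10 replicate 1 both comparisons with miR-301a-3p also stood at an adjusted exact permutation p of 0.05 (-0.68 for miR-130a-3p and 0.70 for miR-301b-3p). With both P10 replicate 3 and adult replicate 1 left out, a choice made after seeing the data, all 4 passed. The differences were 0.61 within the cluster and 0.79 for miR-301a-3p against miR-301b-3p (adjusted exact permutation p = 0.0159 in each). For miR-130a-3p they were -0.68 against miR-130b-3p and -0.86 against miR-301a-3p (adjusted exact permutation p = 0.0357 and 0.0159).

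The other 2 pairs showed no detectable difference in age response. miR-130a-3p and miR-301b-3p, on different chromosomes, kept a ratio of 22.2 at both ages, a difference of 0.0015 ± 0.15 log2 units (SE; exact permutation p = 0.983). miR-301a-3p and miR-130b-3p differed by 0.068 ± 0.18 (SE; exact permutation p = 0.714, adjusted p = 0.857), with 12.4 miR-301a-3p reads per miR-130b-3p read at P10 and 13.0 in adults. After the mean of each age was subtracted, the log2 CPM of miR-130a-3p and miR-301b-3p had a Pearson correlation of 0.69 over the 11 libraries, against 0.14 for the cluster neighbours miR-130b-3p and miR-301b-3p and -0.05 for miR-130a-3p and miR-130b-3p. These are descriptions of libraries that also share a depth and a scaling, and the low counts of miR-301b-3p limit its correlations.

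**Figure D2:**
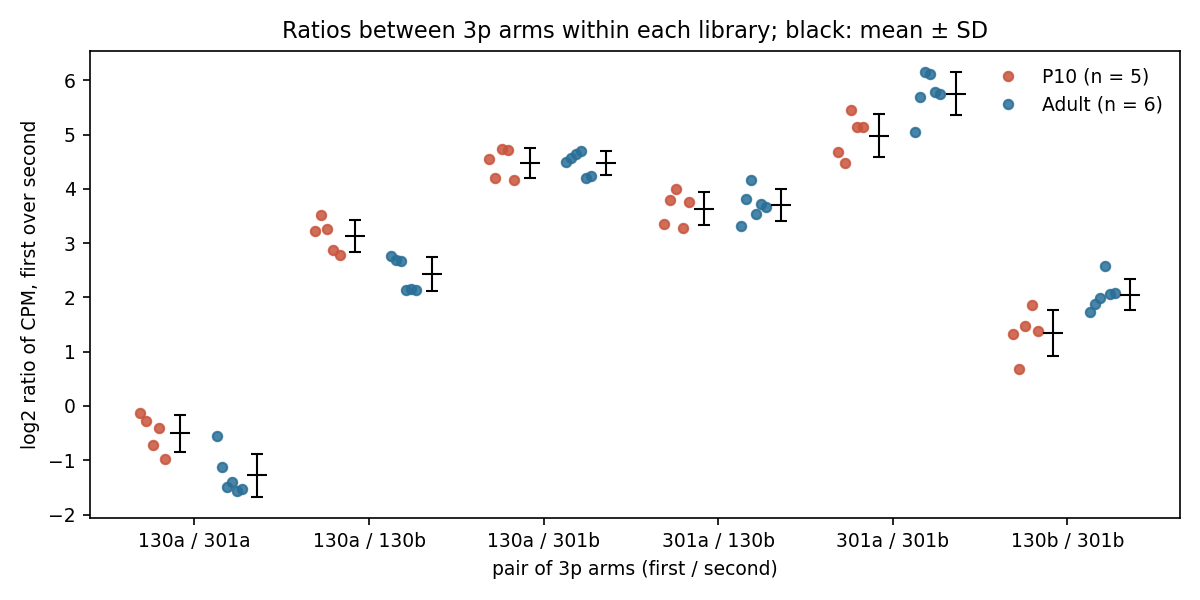
Log2 ratio of CPM between the arms of each of the 6 pairs of 3p arms in every library (first over second; red P10, blue adult, black mean ± SD). The ratio of miR-130a to miR-301b stays near 4.47 at both ages, while miR-130a falls against miR-301a and miR-130b, and miR-130b rises against miR-301b.

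Fold changes of single arms are relative to the scaling, which moved all features together. Compared with TMM, library totals alone shifted the median log2 fold change of all features by -0.27 and upper-quartile scaling by 0.16. The share of calls that were higher was 41.8% with TMM, 22.4% with library totals, 55.2% with upper-quartile scaling and 51.5% with DESeq2's size factors. All 5 tested members had negative changes under each of these scalings. miR-130a-3p ranged from -1.33 to -0.91 and miR-301b-3p from -1.36 to -0.97, and edgeR called both in each of them.

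**Figure D3:**
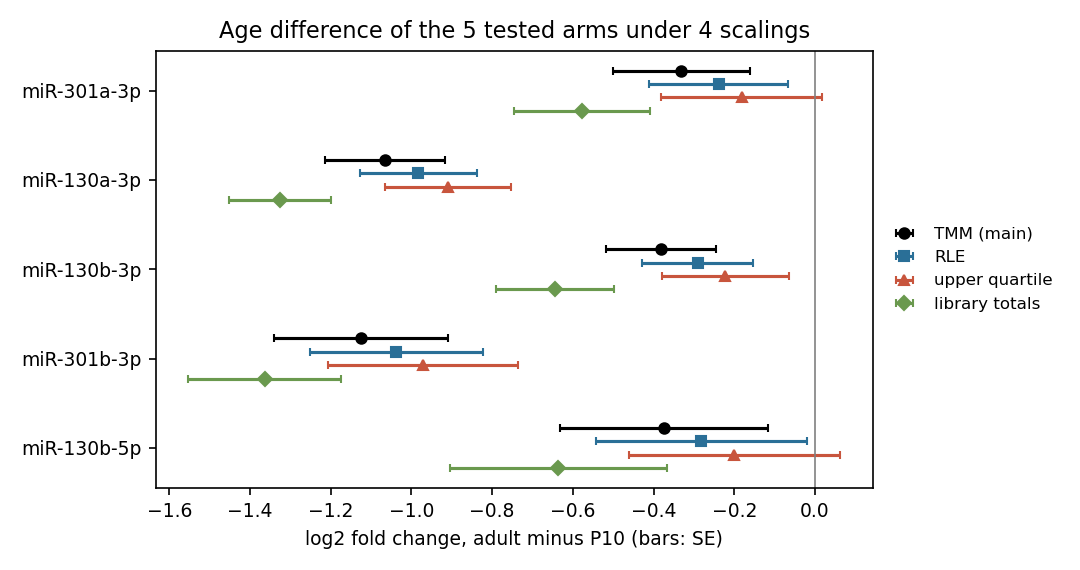
Log2 fold change (adult minus P10, bars SE) of the 5 tested arms with TMM, DESeq2's size factors (RLE), upper-quartile scaling and library totals alone. miR-130a-3p and miR-301b-3p stay near -1, and the other 3 arms lie closer to 0, nearest with upper-quartile scaling.

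The 3p arms of the family together had a lower mean in adults, and the mean shares of the members differed between the ages. Their summed level was 1651, 2495, 2582, 1989 and 2624 CPM in P10 replicates 1, 3, 4, 5 and 6, and ran from 1407 to 1741 CPM in adults. P10 replicate 1 lay within the adult range, and the other P10 libraries lay above it. The means were 2268 ± 429 CPM (SD, n = 5) and 1511 ± 123 CPM (SD, n = 6), a ratio of 1.50 that is given as a description. miR-130a-3p held 38.9% ± 5.24 of the sum at P10 (SD, n = 5) and 27.6% ± 5.42 in adults (SD, n = 6), and miR-301a-3p held 54.9% ± 5.53 and 66.2% ± 5.79. These shares overlapped between the ages. For miR-130a-3p they ran from 31.6% to 44.6% at P10 and from 23.5% to 37.7% in adults. Those of miR-301a-3p ran from 48.8% to 62.1% and from 55.2% to 70.4%. The chromosome 11 arms were minor at both ages: miR-130b-3p held 4.42% ± 0.744 and 5.07% ± 0.720, and miR-301b-3p 1.73% ± 0.376 and 1.19% ± 0.253.

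**Figure D4:**
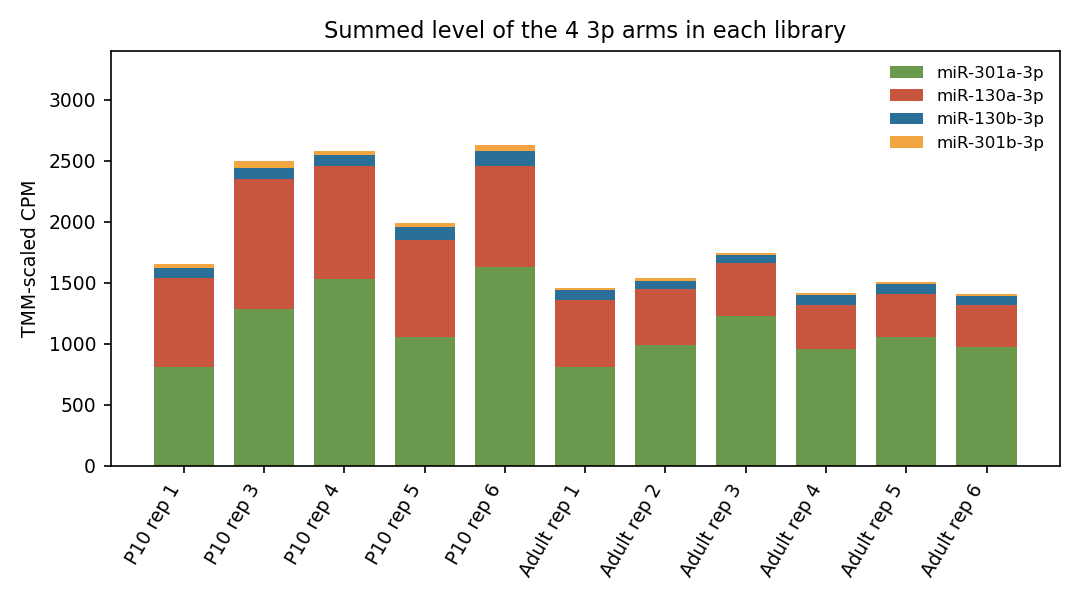
Summed TMM-scaled CPM of the 4 3p arms in each library, stacked by arm. The P10 sums are 1651 to 2624 CPM and the adult sums 1407 to 1741 CPM, and the miR-130a-3p segment (red) is shorter in every adult library than in any P10 library.

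The 5p arms, the lesser products of each hairpin, were scarce. Together they made up 0.822% ± 0.211 of the family's reads at P10 (SD, n = 5) and 0.931% ± 0.295 in adults (SD, n = 6). miR-130b-5p, the only one tested, was at 10.2, 12.8, 11.6, 19.4 and 14.97 CPM in P10 replicates 1, 3, 4, 5 and 6 and at 5.50, 12.1 and 13.6 CPM (lowest, median, highest) in adults. These ranges overlapped, and its log2 change of -0.37 with SE 0.26 (edgeR adjusted p = 0.239) did not pass. At 8 to 72 counts per library, counting alone gives a coefficient of variation of 24.0% in adults. The balance of its arms did not measurably shift with age: the log2 ratio of miR-130b-5p to miR-130b-3p differed by -0.012 ± 0.21 (SE; limma adjusted p = 0.973), while 22.8% of the 127 precursors with both arms tested were called.

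The other 5p arms did not pass the filter and were not tested. miR-301a-5p had 3 to 21 counts per P10 library and 2 to 11 per adult library. miR-130a-5p had 5, 2, 1, 4 and 4 counts in P10 replicates 1, 3, 4, 5 and 6, and in adults 1 count in each of replicates 2 and 6 and 0 in the other 4. miR-301b-5p had 1 count in each of P10 replicates 4 and 5 and 0 elsewhere. A count of 0 allows up to 3 counts, or 0.671 to 2.10 CPM of the library totals, so their absence at either age was not shown.

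miRNAs whose seeds overlap that of the family by an offset of 1 base did not move as one. The seeds of miR-148b-3p and miR-152-3p hold the family's bases 2 to 7 shifted by 1 position. Those of the miR-19 arms hold the family's seed without its first base, shifted the other way. Their sequences are shown with bases 2 to 8 in capitals; miR-148a-3p, another relative, was not analysed here.
miR-148b-3p: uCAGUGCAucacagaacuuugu
miR-152-3p: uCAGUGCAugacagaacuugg
miR-19a-3p: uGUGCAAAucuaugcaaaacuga
Among these relatives miR-152-3p rose: P10 libraries averaged 136 ± 24.9 CPM (SD, n = 5) and adults 245 ± 26.3 CPM (SD, n = 6), a log2 change of 0.85 (edgeR adjusted p = 0.000471). miR-148b-3p was at 1364 ± 100.5 CPM (SD, n = 5) at P10 and 1267 ± 139.6 CPM (SD, n = 6) in adults, near the level of miR-301a-3p, and did not pass (edgeR adjusted p = 0.398). The miR-19 arms, products of proliferation-linked clusters, all fell, with log2 changes of -1.80 for miR-19a-3p, -1.51 for miR-19b1-3p and -1.56 for miR-19b2-3p (edgeR adjusted p at most 0.000548), each below those of the 5 tested members. The files list miR-19b at separate loci, and how reads were divided between them is not stated.

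For each 3p arm the 3 miRNAs with the most similar pattern were found among 174 others of at least 50 CPM, by Pearson correlation of log2 CPM over the 11 libraries after the mean of each age was subtracted. For miR-130a-3p they were miR-143-3p (0.97), miR-145-3p (0.97) and miR-100-5p (0.92). miR-143 and miR-145, which are co-transcribed and abundant in smooth muscle, belong to the mesenchymal list. For miR-301a-3p they were miR-30e-5p (0.97), miR-153-3p (0.93) and miR-101b-3p (0.90). For miR-130b-3p they were miR-425-5p (0.87), miR-16-5p (0.84) and miR-30d-5p (0.84), and for miR-301b-3p miR-192-5p (0.89), miR-28-5p (0.85) and miR-24-3p (0.81). These correlations are within an age and leave out the age change, which could be like or unlike that of the member. Of the partners of miR-130a-3p, miR-145-3p (-0.98, edgeR adjusted p = 0.0104) and miR-100-5p (-1.84, edgeR adjusted p = 0.000182) fell with it, and miR-143-3p had -0.49 (edgeR adjusted p = 0.174). Of those of miR-301b-3p, miR-192-5p (-0.65, edgeR adjusted p = 0.00121) and miR-28-5p (-0.65, edgeR adjusted p = 0.00385) fell with it. In contrast, the remaining partner of miR-301b-3p, miR-24-3p, rose (0.83, edgeR adjusted p = 0.000773). Among the partners of miR-301a-3p, miR-30e-5p (0.38, edgeR adjusted p = 0.0480) and miR-101b-3p (0.43, edgeR adjusted p = 0.0307) rose, and miR-153-3p had 0.65 (edgeR adjusted p = 0.0524). Among those of miR-130b-3p, miR-425-5p (1.00, edgeR adjusted p = 0.000716) and miR-30d-5p (0.70, edgeR adjusted p = 0.000109) rose, and miR-16-5p had 0.16 (edgeR adjusted p = 0.507). The members miR-301a-3p, miR-130b-3p and miR-301b-3p themselves had negative values. Each correlation is the highest of many values over few libraries and is given as a description.

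The mesenchymal and smooth muscle list moved with miR-130a-3p: of its 6 tested arms 4 fell and 0 rose (median log2 fold change -1.11). P10 replicate 3 and adult replicate 1 were highest of their ages in the list sum and in miR-130a-3p. The same libraries were also the highest of their ages for miR-301b-3p, at 57.1 and 23.7 CPM. They had the fewest counts and the lowest TMM factors of their ages as well (0.933 and 0.826). The part of scaling in their high values was not tested. The list sum is mostly miR-143-3p, at 41024 ± 11398 CPM (SD, n = 5) in P10 and 29208 ± 15073 CPM (SD, n = 6) in adult libraries, which did not pass. Scarcer arms of the list fell more: miR-199a-3p was at 1237 ± 59.6 CPM (SD, n = 5) and 255 ± 154 CPM (SD, n = 6), a log2 change of -2.28 (edgeR adjusted p = 3.59e-05), and miR-199a-5p changed by -2.72 (edgeR adjusted p = 6.11e-06) and miR-145-5p by -1.23 (edgeR adjusted p = 0.00484). The list sum therefore does not stand for its scarcer arms, and the content of these cells was not measured. With both P10 replicate 3 and adult replicate 1 left out, a choice made after seeing the data, the log2 fold change was -1.08 ± 0.12 for miR-130a-3p (SE; edgeR adjusted p = 4.98e-05), -1.04 ± 0.18 for miR-301b-3p (SE; edgeR adjusted p = 0.000958) and -0.42 ± 0.15 for miR-130b-3p (SE; edgeR adjusted p = 0.0431). Over all libraries the list sums of the ages overlapped. Among the libraries left they did not, at 33256 to 47437 CPM in P10 and 17177 to 31810 CPM in adult libraries. This separation follows from leaving out adult replicate 1, the only adult library whose sum exceeded the lowest P10 sum. The part of other cell types in these changes was not tested. The proliferation-linked miR-17~92 cluster was lower in all adult libraries than in any P10 library, with sums of 678 to 1073 and 1988 to 2425 CPM, and 9 of its 9 tested arms fell (median log2 change -1.89).

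**Figure D5:**
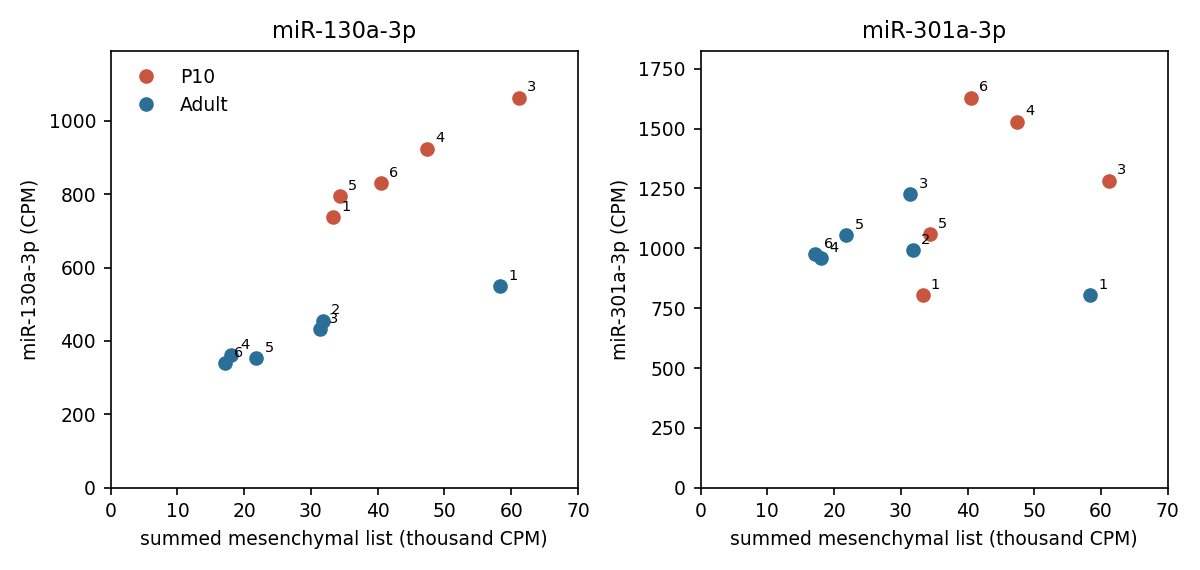
CPM of miR-130a-3p (left) and miR-301a-3p (right) against the summed CPM of the mesenchymal and smooth muscle list in each library (red P10, blue adult, numbers are replicates); the sum is mostly miR-143-3p. Within each age miR-130a-3p is mostly higher where the list is higher, and every P10 library lies above the adult libraries; miR-301a-3p overlaps between ages.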

How the data were processed

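Small RNA libraries were made from total islet RNA by adapter ligation and PCR, which favour some sequences. Per the file headers, the authors deposited raw counts of reads by miRNA arm, with positions in Rnor_5.0. The submitters' processing notes list rn5, edgeR and DESeq without roles; no aligner, counting rule or molecular identifier is named in the sources used here. Tables of the 11 libraries equalled the series table. Repeated names entered once, with the highest count per library; each member had 1 row. edgeR 4.0.16 (R 4.3.3) filtered features with filterByExpr, scaled by TMM and tested age over all features with robust quasi-likelihood fits and Benjamini-Hochberg adjustment (threshold 0.05). Log2 ratios used a prior count of 2. Arm ratios were tested with limma 3.58.1. The edgeR and limma steps were tested on simulated data. Libraries of 1 age always differed by more than sampling noise (chi-square over its degrees of freedom at least 11.7). The text names all members, the seed relatives and the 3 most similar miRNAs per 3p arm. Members, lists and tests were chosen with earlier results of these data known.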

Additional observations from a re-analysis of the deposited data

Results flagged for a closer look

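No library stood apart from the others of its age in any of 26 groups of values tested (levels of the 5 tested members, the summed 3p level, 6 ratios between 3p arms and the arm ratio of miR-130b, at each age), by Dixon's criterion at the 95% level.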

How the results depend on the processing

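Of 19 results, miR-130a-3p and miR-301b-3p kept their calls under every scaling, filter, tool and left-out library run. miR-130b-3p lost its call with DESeq2's size factors (-0.29), upper-quartile scaling (-0.22), no filter (-0.34), DESeq2 1.42.0 (-0.29) and the replicate block (-0.35), and leaving out each library moved it from -0.46 to -0.31. miR-301a-3p gained a call with library totals alone (-0.58) and ran from -0.46 to -0.22 as each library was left out, with a call only without P10 replicate 1. With library totals alone 54 features were called higher, against 97, and the summed 3p level had a log2 ratio of -0.84. As each library was left out, the difference of log2 changes ran from -0.92 to -0.68 for miR-130a-3p against miR-301a-3p, from -0.79 to -0.61 against miR-130b-3p, from 0.65 to 0.92 for miR-301a-3p against miR-301b-3p and from 0.54 to 0.84 for miR-130b-3p against miR-301b-3p; the calls that ended were those without P10 replicate 1 or 3. The cause of these changes was not tested. The replicate numbers did not pair the libraries: same-numbered deviations correlated from -0.21 to 0.20, and 0 of 5 P10 libraries correlated best with its own number. The block changed no other member's call. Depth limited the 5p arms most.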

Other observations

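Reads on the strand opposite to miR-130a were nearly absent. The only antisense feature at the members' loci, at the miR-130a 5p arm, held 6 counts over all libraries, with at most 2 in any library, against 18 sense counts of miR-130a-5p and 18706 of miR-130a-3p.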
